A study of Mus musculus with 2 samples.

Results

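The genes described here are 44 genes of the skeletal muscle sarcomere, measured in the subcutaneous fat of the groin in ApoE-deficient mice with and without uncoupling protein 1. They encode proteins of the thick filament, the thin filament, the Z-disc and M-band and the giant proteins that span them, together with 3 fibre proteins outside the filaments (Pvalb, Pygm and Mb). The members were taken from a list of gene names, chosen with earlier results of these data known, and found through the platform annotation. All 44 were measured, out of 19938 genes with a probe set of their own. A single probe set represented 43 of them, and Tpm3 was read from the brightest of its 4 probe sets.

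One group of mice lacked both UCP1 and ApoE (genotype Ucp1-/-;ApoE-/-, called DKO), and the other lacked ApoE alone (ApoE-/-, called ApoE-KO), so the loss of ApoE was common to both. All were male littermates on the C57BL/6J background, kept at 23 °C, and from 9 weeks of age they ate a high-fat diet during 9 weeks. RNA of inguinal white adipose tissue from 3 mice of a genotype was mixed and hybridised to 1 Affymetrix whole-transcript array, giving 2 arrays in all. Both alleles are germline knockouts, so every tissue of the animals carried them. With 1 array of pooled RNA per genotype the spread between mice was not measured. No test was possible, no p-value is given, and every difference is a description of these arrays without a replicate check.

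Over 35557 probe sets the median intensity was 152.1 under the DKO label and 157.65 under the ApoE-KO label. The Ucp1 probe set read 2230 under the DKO label and 219 under the ApoE-KO label, which goes against the labels if it lies in the deleted part of the gene. Where its probes lie was not known here, so values are given under the DKO label or under the ApoE-KO label throughout, and each direction rests on those labels. Apoe read 502 under the DKO label and 589 under the ApoE-KO label, above the floor in both although both genotypes lack ApoE, and where its probes lie was not known either. The 10 adipocyte genes on the list used to check the tissue all exceeded the floor in both arrays, with a summed intensity of 53961 under the DKO label and 51949 under the ApoE-KO label. A difference is the log2 intensity under the DKO label minus that under the ApoE-KO label, and a gene was counted when it reached 2-fold. The floor is an intensity of 196.9, the median over named probe sets, and stands for no detection limit.

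Muscle fibres contract when myosin of the thick filament pulls on actin of the thin filament, and calcium starts this by binding troponin. Fast and slow fibres build the same machine from different isoforms: most sarcomere proteins have a fast and a slow gene, and fibres are typed by the myosin heavy chain they carry. Type I fibres are slow, and types IIa, IIx and IIb are fast. Embryonic and perinatal myosins precede the adult forms in development and return in regenerating fibres. Fat cells do not assemble sarcomeres, although they use non-muscle relatives of several of these proteins.

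Sarcomere genes were lower under the DKO label as a group, and most of those past 2-fold were fast or shared isoforms. Of the 44 members, 29 (65.9%) were at least 2-fold lower under the DKO label, against 0.527% of all named genes. Because the list was chosen with earlier results of these data known, this contrast describes the list and tests nothing. At least 2-fold higher were 0 members, against 1.51% of all named genes. The median difference of the members was -1.86, beside -0.01 for all named genes. Among 14 fast members 12 were at least 2-fold lower, among 18 members shared by fibre types 16, among 9 slow members 1 (Mybpc1), and among the 3 developmental members (Myh3, Myh8 and Actc1) 0. The class medians were -2.92 for fast, -1.89 for shared, -0.07 for slow and -0.31 for developmental members. In bulk tissue, fewer cells of a type and less RNA per cell cannot be told apart.

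Low values set how these numbers can be read. The DKO-labelled array had 9 members on or above the floor, and the ApoE-KO-labelled array had 34. Both arrays lay below the floor for 10 members, 7 of which are slow isoforms, so their differences rest on low values in both arrays. With every intensity under the floor raised to it, 25 members were at least 2-fold lower, against 0.326% of all named genes, and the medians became -1.18 for all members, 0 for all named genes, -2.53 for fast, -1.55 for shared and 0 for slow members. The 4 members that no longer reached 2-fold were Mylk2, Actn2, Myom2 and Tcap. The members on or above the floor in both arrays were Tnni2, Myl1, Pygm, Acta1, Des, Myom1, Mb, Tpm1 and Tpm3, and flooring left their differences unchanged. Under the DKO label Pygm (199.7), Mb (213), Myom1 (217) and Tnni2 (239) lay close above the floor, so the sizes of their differences are limited as well.

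**Figure D1:**
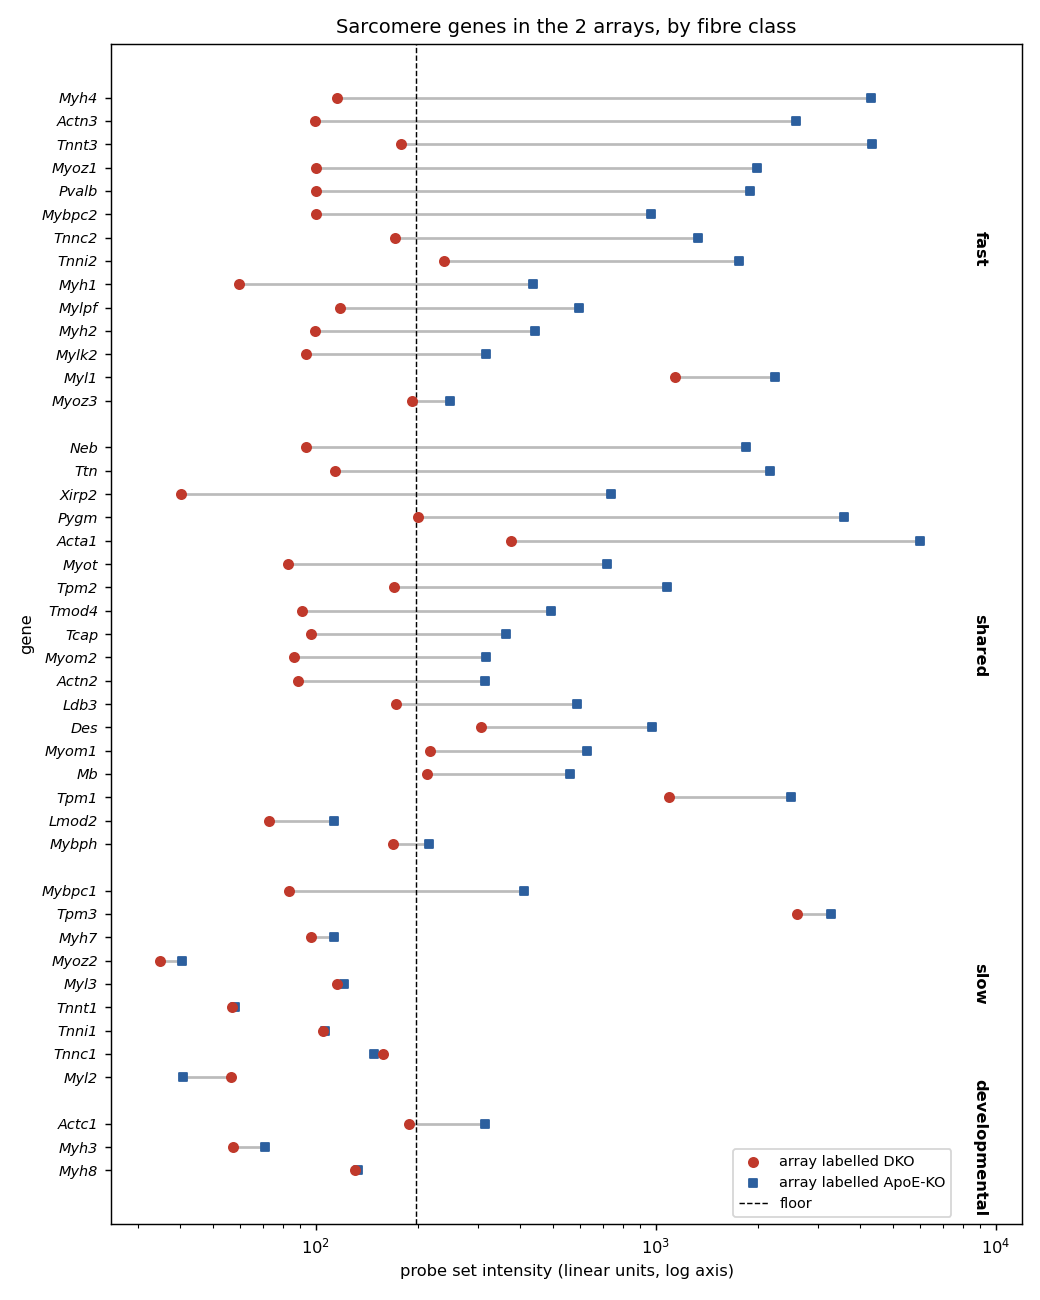
Probe set intensity (log axis) of the 44 sarcomere genes in the DKO-labelled array (red circles) and the ApoE-KO-labelled array (blue squares), grouped by fibre class and ordered by difference, with the floor of 196.9 as a dashed line. All 14 fast genes lie above the floor under the ApoE-KO label and 2 of them, Tnni2 and Myl1, under the DKO label, whereas 7 of 9 slow genes lie below it in both.

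**Figure D2:**
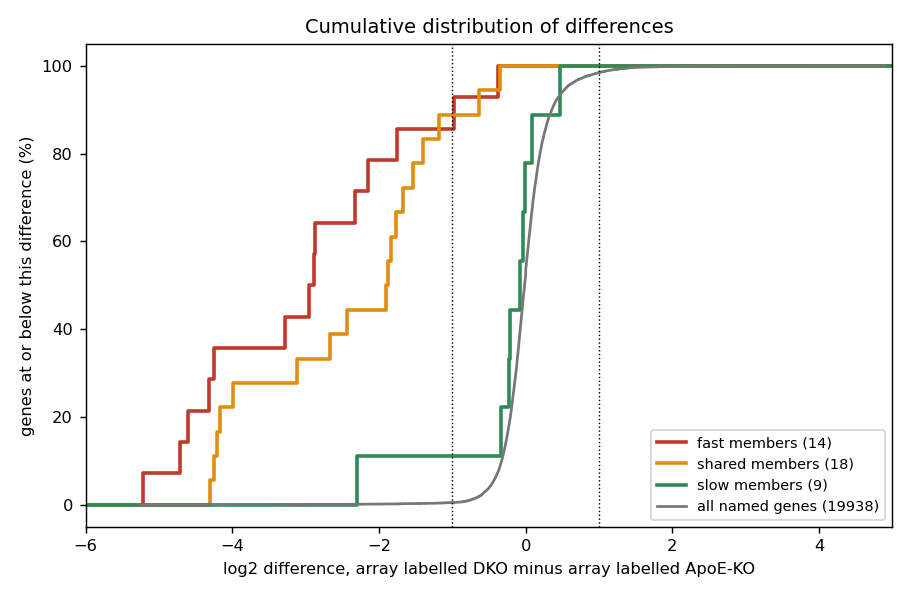
Percentage of genes at or below each log2 difference (DKO-labelled array minus ApoE-KO-labelled array) for fast, shared and slow members and for all 19938 named genes, with dotted lines at 2-fold. The slow members, mostly below the floor in both arrays, lie near the curve of all genes apart from Mybpc1 at -2.29, and the fast and shared members lie to its left.

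Among the thick filament motors, the adult fast forms were lower, and the slow and developmental forms lay below the floor in both arrays. Myh4, the heavy chain of the fastest (IIb) fibres, had an intensity of 116 under the DKO label and 4317 under the ApoE-KO label, a difference of -5.22 or 37.2-fold, and of -4.45 with the lower value raised to the floor. Myh1, the IIx heavy chain, read 59.7 under the DKO label and 437 under the ApoE-KO label (-2.87, or -1.15 with the floor). Myh2, the IIa heavy chain, read 99.5 under the DKO label and 442 under the ApoE-KO label (-2.15, or -1.17 with the floor). All 3 adult fast myosins were thus below the floor under the DKO label and above it under the ApoE-KO label, and the order of Myh1 and Myh2 turned when the floor was used. Myh7, the slow type I heavy chain, read 97.2 under the DKO label and 113 under the ApoE-KO label. Myh3, the embryonic form, read 57.2 under the DKO label and 70.8 under the ApoE-KO label, and Myh8, the perinatal form, read 131 under the DKO label and 134 under the ApoE-KO label. These 3 lay below the floor in both arrays. The Myh8 difference of -0.03 changed sign with other scalings of the arrays (up to 0.02).

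Myh3, Myh2, Myh1, Myh4 and Myh8 stand side by side on chromosome 11 in that order, followed by Myh13, with no other protein-coding gene between them in the RefSeq annotation. The flanking genes differed by less than 2-fold: Sco1, a copper chaperone of cytochrome c oxidase, by 0.42 and Gas7 by -0.69. Inside the cluster the 3 adult fast genes in the middle were lower, and Myh3 (-0.31), Myh8 (-0.03) and Myh13, the extraocular muscle form (-0.05), were below the floor in both arrays. The coding sequences of these myosins are alike, and how far a probe set reads its neighbours' transcripts was not tested. Without the 3 fast myosins, the median of the fast members was -2.95.

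**Figure D3:**
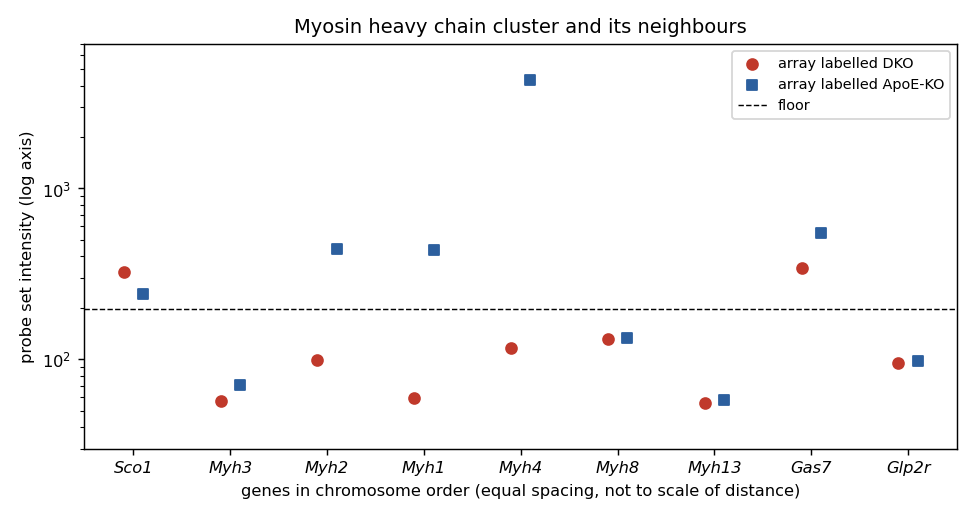
Probe set intensity (log axis) of the myosin heavy chain genes of chromosome 11 and their neighbours in chromosome order, for the DKO-labelled array (red circles) and the ApoE-KO-labelled array (blue squares), with the floor dashed. Myh2, Myh1 and Myh4 lie above the floor under the ApoE-KO label alone, and Myh3, Myh8 and Myh13 lie below it in both.

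The promoters of the 5 neighbouring myosins are shown because Myh2, Myh1 and Myh4 were at least 2-fold lower under the DKO label. Myh3 and Myh8 lay below the floor in both arrays, so their differences could not be read. That of Acta1, the skeletal actin gene, is shown because its difference was measured with both values above the floor. Each run covers 250 bases before to 50 after the start of the gene, 5′ to 3′ on the gene's strand (RefSeq, GRCm38.p6). Capitals mark TATAAA on the gene's strand, and MEF2 sites and CArG boxes on either strand. MEF2 is a factor of muscle gene expression, and the CArG box is the sequence that serum response factor binds.
Myh3, chr11:67078050-67078349, + strand: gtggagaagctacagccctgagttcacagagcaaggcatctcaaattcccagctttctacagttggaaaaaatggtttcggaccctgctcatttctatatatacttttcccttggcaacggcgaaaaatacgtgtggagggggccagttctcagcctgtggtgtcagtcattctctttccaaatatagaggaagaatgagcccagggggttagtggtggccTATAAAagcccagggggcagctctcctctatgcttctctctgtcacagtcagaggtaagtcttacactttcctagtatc
Myh2, chr11:67170777-67171076, + strand: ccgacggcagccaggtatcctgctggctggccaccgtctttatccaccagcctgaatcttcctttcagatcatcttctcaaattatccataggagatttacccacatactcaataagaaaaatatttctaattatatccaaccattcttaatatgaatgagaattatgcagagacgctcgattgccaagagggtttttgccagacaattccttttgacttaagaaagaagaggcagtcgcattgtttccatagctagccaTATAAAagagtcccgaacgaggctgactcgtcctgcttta
Myh1, chr11:67199852-67200151, + strand: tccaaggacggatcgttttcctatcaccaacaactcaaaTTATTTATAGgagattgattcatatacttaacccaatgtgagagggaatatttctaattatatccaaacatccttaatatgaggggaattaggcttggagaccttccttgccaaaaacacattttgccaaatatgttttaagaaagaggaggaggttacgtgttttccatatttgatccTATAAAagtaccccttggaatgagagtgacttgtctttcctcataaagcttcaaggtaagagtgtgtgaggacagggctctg
Myh4, chr11:67237562-67237861, + strand: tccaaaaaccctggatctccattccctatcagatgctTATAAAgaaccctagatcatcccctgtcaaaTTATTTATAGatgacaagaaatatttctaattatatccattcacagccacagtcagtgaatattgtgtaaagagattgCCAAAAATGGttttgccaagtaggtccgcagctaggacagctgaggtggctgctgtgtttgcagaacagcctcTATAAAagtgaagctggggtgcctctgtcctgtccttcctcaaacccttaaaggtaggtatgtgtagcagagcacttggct
Myh8, chr11:67276874-67277173, + strand: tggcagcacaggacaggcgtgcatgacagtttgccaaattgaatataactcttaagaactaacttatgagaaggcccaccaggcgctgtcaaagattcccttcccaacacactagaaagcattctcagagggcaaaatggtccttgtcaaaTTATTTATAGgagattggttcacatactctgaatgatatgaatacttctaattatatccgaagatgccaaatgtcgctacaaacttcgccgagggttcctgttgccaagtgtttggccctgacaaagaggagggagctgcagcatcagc
Acta1, chr8:123894726-123895025, - strand: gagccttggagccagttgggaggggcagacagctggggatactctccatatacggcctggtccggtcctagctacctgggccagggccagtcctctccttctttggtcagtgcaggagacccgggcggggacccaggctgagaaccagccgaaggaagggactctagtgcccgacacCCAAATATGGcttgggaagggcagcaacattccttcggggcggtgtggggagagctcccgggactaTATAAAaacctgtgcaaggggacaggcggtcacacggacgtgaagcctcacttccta

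RefSeq promoter sequences of this kind were found for 34 of the 44 members (42 promoters). They covered 8 of 14 fast, 9 of 9 slow and 14 of 18 shared genes, so counts by class miss many fast genes. A MEF2 site was found in 16.7% of the members' promoters and 3.19% of 32851 promoters in all, and its 7 members were Myh1, Myh4, Myh8, Myoz2, Pvalb, Ttn and Xirp2. CArG boxes were found in 16.7% of the members' promoters (Acta1, Actc1, Ldb3, Myh4, Myl3 and Myom1) and 1.63% of all. The E-box CAGCTG, a hexamer that MyoD-type factors bind, occurred in 42.9% of the members' promoters and 16.3% of all. The wider E-box CANNTG, which includes it, occurred in 88.1% of the members' promoters and 72.3% of all. CATTCC, the core of the MCAT element, occurred on either strand in 26.2% of the members' promoters and 14.7% of all, and TATAAA on the gene's strand in 16.7% and 8.32%. The motifs can share bases, and several promoters can belong to 1 gene. By class, a MEF2 site lay in 3 of 9 fast, 1 of 13 slow and 2 of 17 shared promoters, and a CArG box in 1, 1 and 4 of them. CATTCC lay in 4 fast, 3 slow and 4 shared promoters, and TATAAA in 3, 1 and 1. CANNTG lay in 6 fast, 13 slow and 15 shared promoters. CAGCTG lay in 3 fast, 7 slow and 8 shared promoters, and the slow genes Myl2, Myoz2 and Tnni1, below the floor in both arrays, were among those that carried it. The longest run common to the promoters of Myh2, Myh1, Myh4 and Myh8 had 14 bases, TTCTAATTATATCC, and was found in 4 of the 32851 promoters, those of the same 4 genes. It was looked for after the sequences had been seen. Myh8, which was below the floor in both arrays, holds this run and a MEF2 site, as Myh4 does. A match describes letters in a window and shows no binding.

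Of the myosin light chains, the fast forms were lower, Myl1 by less, and the slow forms lay below the floor in both arrays. Mylpf, the fast regulatory light chain, read 118 under the DKO label and 595 under the ApoE-KO label (-2.33, or -1.59 with the floor). Its slow counterpart Myl2 read 56.5 under the DKO label and 40.8 under the ApoE-KO label, both far below the floor. Myl1, the fast essential light chain, read 1142 under the DKO label and 2248 under the ApoE-KO label, a difference of -0.98 or 1.97-fold. It was the only fast member besides Tnni2 to lie above the floor under the DKO label, it stopped just short of 2-fold, and under quantile normalization it passed (-1.03). The slow essential light chain Myl3 read 115 under the DKO label and 121 under the ApoE-KO label, below the floor in both. Mylk2, the kinase that phosphorylates the regulatory light chain, read 94.0 under the DKO label and 317 under the ApoE-KO label (-1.75, or -0.69 with the floor). Among the myosin-binding proteins, which brace the thick filament, the fast form Mybpc2 read 100.2 under the DKO label and 969 under the ApoE-KO label (-3.27, or -2.30 with the floor). The slow form Mybpc1 read 83.7 under the DKO label and 410 under the ApoE-KO label (-2.29, or -1.06 with the floor), the single slow isoform that was at least 2-fold lower. Mybpc1 is named for slow fibres, but fast fibres of the mouse express it as well. Mybph, a shorter relative, read 169 under the DKO label and 216 under the ApoE-KO label (-0.35).

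Troponin, the calcium switch of the thin filament, has 3 subunits, and a fast and a slow form of each was measured. Tnnt3, the fast tropomyosin-binding subunit, read 178 under the DKO label and 4320 under the ApoE-KO label (-4.60 or 24.2-fold, and -4.46 with the floor). Tnni2, the fast inhibitory subunit, read 239 under the DKO label and 1761 under the ApoE-KO label (-2.88). Tnnc2, the fast calcium-binding subunit, read 172 under the DKO label and 1330 under the ApoE-KO label (-2.95, or -2.76 with the floor). All 3 fast subunits were thus at least 2-fold lower, with or without the floor. Their slow counterparts were below the floor in both arrays. Tnnt1 read 56.6 under the DKO label and 57.8 under the ApoE-KO label, and Tnni1 read 105 under the DKO label and 107 under the ApoE-KO label. Tnnc1, which heart also uses, read 158 under the DKO label and 149 under the ApoE-KO label. The differences of Tnnt1 (-0.03) and Tnni1 (-0.02) changed sign with other scalings, up to 0.02 and 0.04.

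The troponin genes also lie in pairs along the chromosomes. Tnni2 and Tnnt3, both fast, are separated on chromosome 7 by 1 gene, Lsp1, an actin-binding protein of leukocytes, which differed by -0.68. The slow gene Tnnt1 lies next to the cardiac gene Tnni3 (-0.16), and the slow gene Tnni1 is separated from the cardiac gene Tnnt2 (0.03) by Lad1 (-0.23). Across all 44 members, the nearest measured protein-coding genes on either side, passing over the members and the other sarcomere and heart genes, were 79 genes with a median difference of -0.05. Of these neighbours 0 were at least 2-fold lower, against 0.527% of all named genes. The 1 at least 2-fold higher, against 1.51% of all named genes, was Acadl, an acyl-CoA dehydrogenase beside Myl1 (1.11). Among 79 genes, these counts are near those shares.

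In the 8 proteins with a fast and a slow gene on the list, the fast gene's difference was the more negative in each. The fast difference minus the slow difference ranged from -4.99 (Myh4 against Myh7) to -0.91 (Myl1 against Myl3), with a median of -2.95. In 7 of the 8 pairs the slow gene lay below the floor in both arrays, the exception being Mybpc1, so low slow values enter these gaps. Mylpf against Myl2, for example, gave -2.80, of which Myl2 contributed a difference of 0.47, and -1.59 with the floor. With the floor the median gap was -2.82. In 0 of the pairs did all 4 values reach the floor, and how slow isoforms would differ where they are well expressed was thus not measured. The α-actinins, which anchor actin at the Z-disc, come as a fast form and a form of all fibres. Actn3, the fast form, read 99.4 under the DKO label and 2595 under the ApoE-KO label (-4.71, or -3.72 with the floor). Actn2, found in all fibres, read 88.6 under the DKO label and 315 under the ApoE-KO label (-1.83, or -0.68 with the floor).

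**Figure D4:**
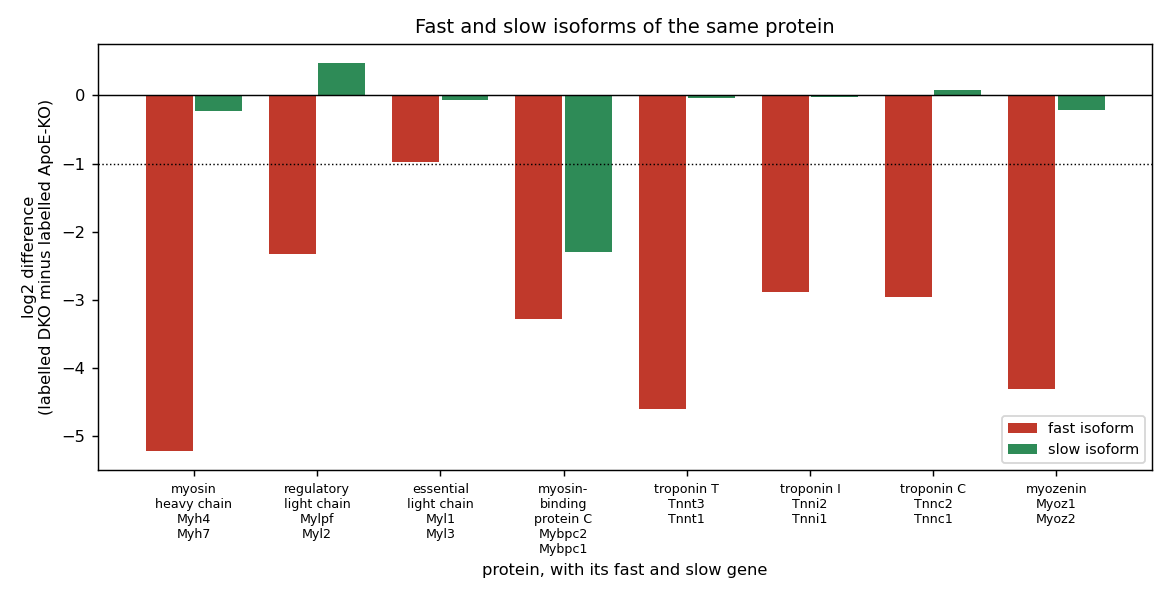
Log2 difference (DKO-labelled array minus ApoE-KO-labelled array) of the fast (red) and slow (green) gene of 8 sarcomere proteins, with a dotted line at 2-fold lower. Fast genes range from -5.22 to -0.98, and the only slow gene past 2-fold is Mybpc1 at -2.29.

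Of the thin filament genes outside troponin, Acta1 had an intensity of 376 under the DKO label and 5998 under the ApoE-KO label, a difference of -3.99 or 15.9-fold, measured above the floor on both sides. Actc1, the cardiac actin that developing skeletal muscle also makes, read 188 under the DKO label and 314 under the ApoE-KO label (-0.74). Tropomyosins, the coiled coils along actin, differed among themselves. Tpm2 read 170 under the DKO label and 1078 under the ApoE-KO label (-2.66), and Tpm1 read 1099 under the DKO label and 2498 under the ApoE-KO label (-1.18). Tpm3, whose gene makes the slow skeletal form and also non-muscle forms, read 2605 under the DKO label and 3282 under the ApoE-KO label (-0.33), and its 3 other probe sets gave -0.33 (10493633), -0.29 (10549979) and -0.28 (10560000). Tpm1 and Tpm3, both also used outside skeletal muscle, were above the floor in both arrays. Tmod4, the tropomodulin that caps the thin filament in skeletal muscle, read 91.0 under the DKO label and 493 under the ApoE-KO label (-2.44). Lmod2, a leiomodin mainly of heart, was below the floor in both arrays, at 73.0 under the DKO label and 113 under the ApoE-KO label.

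The giant proteins differed by nearly the same amount. Neb, the ruler of the thin filament, read 93.7 under the DKO label and 1846 under the ApoE-KO label (-4.30, or -3.23 with the floor). Ttn, the spring that runs from Z-disc to M-band, read 114 under the DKO label and 2171 under the ApoE-KO label (-4.25, or -3.46 with the floor). Myom1 and Myom2, which crosslink myosin at the M-band, read 217 and 86.3 under the DKO label, against 629 and 318 under the ApoE-KO label (-1.53 and -1.88). Their differences were smaller than those of the giant proteins (-1.53 and -0.69 with the floor). Under the DKO label Myom2, Neb and Ttn lay below the floor, so these sizes largely follow the ApoE-KO-labelled intensity.

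Of 10 Z-disc genes, 8 were at least 2-fold lower, against 0.527% of all named genes. The myozenins tether calcineurin at the Z-disc. Myoz1, the fast form, read 100.2 under the DKO label and 1994 under the ApoE-KO label (-4.31, or -3.34 with the floor). Myoz2, the slow and cardiac form, read 34.9 under the DKO label and 40.5 under the ApoE-KO label, both far below the floor. It is the only slow gene among the Z-disc members, so fast and slow Z-disc genes could not be compared. Myoz3, another fast form, read 192 under the DKO label and 248 under the ApoE-KO label (-0.37). Myoz3 and Myl1 were the fast genes that did not reach 2-fold. All 8 Z-disc and M-band members shared by fibre types were at least 2-fold lower, and 5 of them with the floor. Xirp2, an actin-binding protein of the Z-disc region, read 40.1 under the DKO label and 741 under the ApoE-KO label (-4.21, or -1.91 with the floor). Myot, which crosslinks actin, read 83.2 under the DKO label and 719 under the ApoE-KO label (-3.11, or -1.87 with the floor). For both, the value under the DKO label lay far below the floor, and the floored difference was smaller by over 1 log2 unit. Tcap, the cap of titin at the Z-disc, read 96.8 under the DKO label and 363 under the ApoE-KO label (-1.91). Ldb3, a PDZ-LIM protein that stabilises the Z-disc, read 172 under the DKO label and 586 under the ApoE-KO label (-1.77). Des, the intermediate filament that links Z-discs and is also made by smooth muscle, read 306 under the DKO label and 975 under the ApoE-KO label (-1.67), above the floor in both.

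The 3 fibre proteins outside the filaments were all lower. Pvalb, the calcium buffer of fast fibres in rodents, read 100.2 under the DKO label and 1899 under the ApoE-KO label (-4.24, or -3.27 with the floor). Pygm, muscle glycogen phosphorylase, read 199.7 under the DKO label, just above the floor, and 3591 under the ApoE-KO label (-4.17, 18.0-fold). Mb, the oxygen store of oxidative fibres and heart, read 213 under the DKO label and 562 under the ApoE-KO label (-1.40). Under the DKO label all 3 read near or below the floor, so the sizes of these differences largely follow the ApoE-KO-labelled intensity. They give no ranking of fibre types.

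Other genes of the sarcomere, from a list beside the members, followed them in part. Of 30 measured, 11 were at least 2-fold lower, against 0.527% of all named genes, and 6 with the floor, against 0.326%. At least 2-fold higher were 0, against 1.51% of all named genes. The median was -0.72, or 0 with the floor, and 14 genes lay below the floor in both arrays. The largest differences with the floor were those of Pdlim3, a PDZ-LIM protein of the Z-disc (-2.11, or -1.64), Cmya5, a large muscle protein (-2.03, or -1.48), Tmod1, a tropomodulin also found outside muscle (-1.32, and 0.14 from its dimmer probe set), and Ankrd23, an ankyrin repeat protein that binds titin (-1.27). The list of heart isoforms, which also holds the peptide hormone genes Nppa and Nppb, had 0 of 9 genes past 2-fold in either direction. That is near the shares of all named genes (0.527% lower, 1.51% higher). The median of this list was 0.09, or 0 with the floor, and 7 of its genes lay below the floor in both arrays. Myl4 at 0.19 and Mybpc3 at 0.32 were the 2 above the floor under the DKO label.

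Contractile genes of smooth muscle and of non-muscle cells were read beside the members. Smooth muscle genes had 0 of 10 members past 2-fold and a median of -0.004, with 7 above the floor in both arrays. Of all named genes 0.527% were at least 2-fold lower and 1.51% higher, so 0 in a list this short is near those shares. Synpo2 (-0.37), Myh11, the smooth muscle myosin (-0.18), Mylk (-0.18) and Smtn (-0.13) had the largest differences once low values were raised to the floor, and Cnn1 (0.25) lay below it in both arrays. Non-muscle genes had 0 of 11 members past 2-fold, also near those shares, and a median of -0.08, all above the floor in both arrays. Myh9, a non-muscle myosin (-0.36), Actn1, a non-muscle α-actinin (-0.35), Actb, β-actin (-0.25), and Tpm4 (-0.21) led this list.

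Genes of muscle precursor cells and of the nerve-muscle contact were mostly under the floor. Of 11 satellite cell and myoblast genes, 9 lay below it in both arrays, among them Pax7, Myod1 and Myog. The 1 member past 2-fold was Myf6, a regulator that mature fibres keep expressing, which read 60.1 under the DKO label and 283 under the ApoE-KO label (-2.23, or -0.52 with the floor). Of 8 genes of the neuromuscular junction, 7 lay below the floor in both arrays and 0 differed 2-fold, with Colq at -0.11. Among all named genes, 0.527% were at least 2-fold lower and 1.51% higher. The lists of precursor and junction genes therefore had little signal to compare.

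Markers of other cell types that moved alongside were read from the same arrays. All 8 fibroblast genes were lower by some amount, as were 10397 of all 19938 named genes. Of the 8, 1 (Pi16) was at least 2-fold lower, against 0.527% of all named genes. The fibroblast genes had a summed intensity of 17460 under the DKO label and 25891 under the ApoE-KO label and a median difference of -0.61. Pi16 (-1.13), Col3a1 (-0.79), Dpp4 (-0.77) and Col1a2 (-0.67) had the largest differences. Of 12 brown and beige adipocyte genes 8 were at least 2-fold higher, against 1.51% of all named genes, with a summed intensity of 25519 under the DKO label and 5352 under the ApoE-KO label, led with the floor by Fabp3 (3.59), Elovl3 (4.90, or 3.35 with the floor), Cox7a1 (3.23) and Cidea (2.90). The 4 that did not reach 2-fold were Prdm16 (0.13), Tbx1 (-0.05), Ebf2 (-0.21) and Zic1 (-0.23, below the floor in both arrays). These 4 are regulators, but the coactivator Ppargc1a on the same list was higher (1.44, and 1.39 from its dimmer probe set). The adipocyte genes had a median of 0.05, with Pparg at 0.47, Retn at -0.12, Adipoq at -0.12 and Pnpla2 at 0.12. Of 7 skin epithelium genes 6 lay below the floor in both arrays, Krt5 and Krt14 among them, and Krtap3-1 stood at -0.10. The summed intensity of the 44 sarcomere genes was 10189 under the DKO label and 51524 under the ApoE-KO label, and for the 14 fast members 2810 under the DKO label and 23473 under the ApoE-KO label. The part of these other cell types in the sarcomere differences was not tested.

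**Figure D5:**
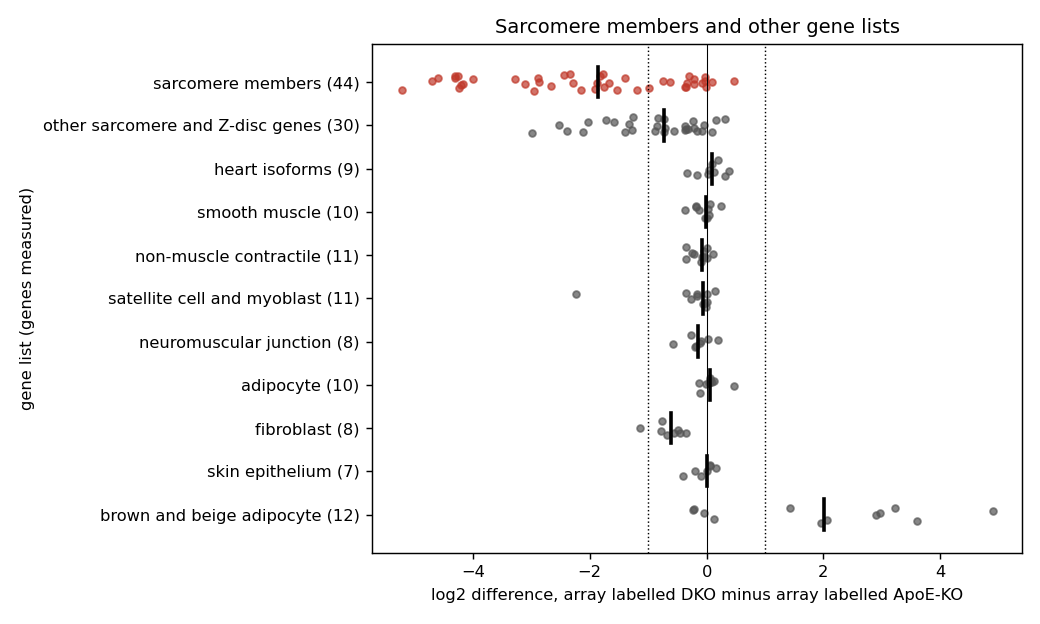
Log2 difference (DKO-labelled array minus ApoE-KO-labelled array) of each measured gene in the sarcomere list and 10 other lists, with black bars at the list medians and dotted lines at 2-fold. Vertical scatter within a list is for display, and the sarcomere median of -1.86 lies lowest of the 11 lists drawn, with brown and beige adipocyte genes highest at 2.01.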

How the data were processed

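Inguinal fat RNA, pooled from 3 mice per genotype, was measured on 1 Affymetrix array per genotype. The authors deposited 1 linear intensity per probe set and array (3.55 to 23635.65), as read from the values. The software, background correction and scaling, not given in the sources used here, are unknown. Per the labels' protocols, Trizol was used for extraction and the label was biotin.

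Log2 of each intensity was taken without a pseudocount (Python 3.11.15, numpy 2.4.6, pandas 2.3.3, statsmodels 0.14.6, matplotlib 3.10.9). Of 35557 probe sets, 21789 had 1 gene symbol, 1621 several (left out) and 12147 none here. Symbols came from the platform annotation, and all 44 members' Entrez identifiers matched RefSeq (GRCm38.p6). A gene with several probe sets was read from the brightest, by mean log2 intensity. With 1 array per group, size (2-fold) was described, over all members without a filter. The number of arrays limits the precision. The code was run on simulated data with little noise and shifts well past 2-fold. That checks the code and says nothing about the spread between real arrays.

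Members, fibre classes and gene lists were chosen with earlier results of these data known. Classes follow textbook isoform assignments. Named are all members, up to 4 genes per list with the largest differences after flooring, and 6 genes outside all lists. Those 6 had the most negative such difference once predicted genes, RIKEN clones and immunoglobulin gene segments were left out. A few more genes were chosen after their values were seen. Those few were Pax7, Myod1, Myog, Krt5, Krt14, Cnn1, Prdm16, Tbx1, Ebf2, Zic1, Ppargc1a and the genes flanking members. Alternatives were quantile normalization, median centring, loess (span 0.4), an offset of 50, flooring, other probe set rules, thresholds of 1.5-fold and 3-fold, means, and lists without named genes.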

Additional observations from a re-analysis of the deposited data

How the results depend on the processing

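The count of 29 members at least 2-fold lower lay between 25 (low values at the floor) and 32 (threshold of 1.5-fold) over 9 alternatives. The member median of -1.86 lay between -2.04 and -1.18, the fast median between -3.05 and -2.53, the shared median between -1.91 and -1.52 and the slow median between -0.29 and 0. The fast minus slow difference of medians was -2.85 and lay between -2.91 and -2.53, and the median over isoform pairs, -2.95, between -3.01 and -2.67. Keeping the members with a mean above the floor left 26, of which 9 reach it under the DKO label. The ApoE-KO value decides that filter for most of them, so its 22 lower genes and median of -2.77 show nothing about stability. Isoform pairs with all values above the floor numbered 0, so that alternative gave no value. With low values at the floor, the count of other sarcomere genes at least 2-fold lower became 6 in place of 11, and that of satellite cell and myoblast genes 0 in place of 1, by construction. Of 308 values of single members under alternatives, 303 kept their side of 2-fold, 4 came inside it at the floor (Mylk2 -0.69, Actn2 -0.68, Myom2 -0.69, Tcap -0.88) and Myl1 passed it under quantile normalization (-1.03). Scaling moved the median of all named genes by at most 0.05. Rules for several probe sets could change Tpm3 alone among the members. Values of the other 43 members under those rules are the same by construction, and they are counted in the 303. No paired analysis was possible because each genotype has 1 array. Intensities near or below the floor limit what can be said of slow and developmental isoforms, and of the size of any difference whose lower value lies there.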

Other observations

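Outside the members and the 10 lists, the 6 genes with the most negative differences after flooring were all known from muscle. Predicted genes, RIKEN clones and immunoglobulin gene segments had been left out before the 6 were taken. Atp2a1, the calcium pump of fast fibres, read 156 under the DKO label and 5900 under the ApoE-KO label (-5.25, or -4.91 with the floor). Ckm, the muscle creatine kinase, read 169 under the DKO label and 2639 under the ApoE-KO label (-3.96, or -3.74). Casq1, the calcium store protein of fast fibres, read 111 under the DKO label and 2205 under the ApoE-KO label (-4.31, or -3.49). Klhl31, a Kelch protein of muscle, stood at -5.17 (-3.07 with the floor, and -2.40 from its dimmer probe set), and the glycolytic enzymes of muscle Eno3 and Pgam2 at -2.49 and -2.69 (-2.49 and -2.26 with the floor).

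Of the 105 named genes at least 2-fold lower under the DKO label, 29 (27.6%) were sarcomere members and 11 (10.5%) were on the list of other sarcomere genes. A further 63 (60.0%) were neither members nor on any list used here. The 2 that remain were Myf6 and Pi16.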
